A study of Mus musculus with 35 samples.

Results

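Htt Q111/+ mice carry 1 copy of the mouse huntingtin gene with an expanded CAG repeat, knocked into the gene's own locus, beside 1 normal copy, and serve as a genetic model of Huntington's disease. The comparison described here was Htt ASO against saline within these mice. Its members were chosen by the labelled genotype (Q111/+) and treatment (ASO1, taken as Htt ASO, and Saline), with no measured value entering the choice. They were 12 of the 35 mice of the series, 6 on Htt ASO and 6 on saline, with 1 library each. Mice go by the names in the sample titles, Htt ASO replicates 1 to 6 being GS1, GU2, GV1, GV2, GW2 and GZ1 and saline replicates 1 to 6 GT2, HI2, HO1, HP2, IB2 and IE2. Htt ASO is an antisense oligonucleotide complementary to Htt mRNA. It was injected into the peritoneum weekly at 50 mg/kg, and saline at 4 uL/g, from 2 to 10 months of age. All were female mice of strain C57BL6/J. At sacrifice the Htt ASO mice were 299 to 302 days old and the saline mice 300 to 304. RNA of these 12 mice came from the right hemistriatum, after perfusion with saline, so each library mixes neurons, glia and vessels. Values given beside this comparison came from 6 Htt Q111/+ mice on a control ASO at the same dose, and from Htt +/+ mice, 6 on Htt ASO, 6 on saline and 5 on control ASO. The library of 1 of those Htt +/+ mice, on Htt ASO, was labelled left hemistriatum.

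Antisense oligonucleotides of this kind bind a complementary transcript and lead to its cleavage by RNase H. After injection outside the brain they reach liver and other organs and cross the blood-brain barrier poorly, and the study used this route to lower huntingtin in the periphery. Interferons are secreted proteins that signal through JAK kinases, STAT proteins and IRF9 to a shared set of antiviral genes, whose promoters often hold an interferon-stimulated response element (ISRE). Endothelial cells of brain vessels face the blood and respond to interferons and cytokines carried in it. Glucocorticoids act through a receptor that binds its own response element (GRE) near genes such as Sgk1 and Tsc22d3.

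Total counts per mouse ran from 32394717 to 36802588 on Htt ASO and 32641448 to 37867044 on saline, and the scaling factors from 1.01 to 1.03 and 0.999 to 1.03. Levels are given in CPM, the count scaled to library size, and differences as log2 fold changes of Htt ASO minus saline from limma after voom. Across 17639 tested genes, 98 were called (0.556%), meaning an adjusted p under 0.05. Of these, 86 were higher (0.488% of tested genes) and 12 lower (0.068%) on Htt ASO. This balance depended on the fit, with 33 called lower by DESeq2, and 55 higher and 2 lower with age as a covariate. Shared lanes alone, with lane as a covariate, gave 22 higher and 5 lower, and leaving out lane 7 gave 34 higher and 36 lower. Every Htt ASO mouse lay above every saline mouse in 112 genes (0.635%) and below in 28 (0.159%). The median log2 fold change of all tested genes was −0.0047. Medium spiny neuron genes, the markers of the principal striatal cell, were measured in every mouse, with a summed level of 14588 to 17086 CPM on Htt ASO and 14756 to 17113 on saline. The L and number in the sample titles, read as the sequencing lane, placed 3 lanes with mice of both groups. In each of them all 86 higher and all 12 lower genes had the same direction, values that partly make up the calls. Names of 6 of 6 Htt ASO mice but 1 of 6 saline mice began with G, as did those of 5 of 6 control ASO mice, and no source used here says what the letter stands for. Oas2, taken up first among the interferon-inducible genes, was at 1.22 CPM in the saline mouse so named and at 0.864 to 1.43 in those 5 control ASO mice, all below the lowest Htt ASO mouse (3.09). This is 1 gene, the one with the smallest adjusted p of the comparison. Whether the calls go with what the letter stands for was not tested.

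The target transcript, Htt, listed under the older symbol Hdh, was measured first. It ranged from 60.9 to 83.6 CPM (median 72.0) on Htt ASO, from 69.8 to 93.1 CPM (median 78.9) on saline and 65.3 to 88.1 CPM (median 73.5) on control ASO, and all 3 groups overlapped. The difference was smaller than the spread between mice (log2 fold change −0.15, 95% confidence interval −0.34 to 0.043, adjusted p = 0.919, exact two-sided permutation p = 0.141). Both alleles are counted together in these values.

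**Figure D1:**
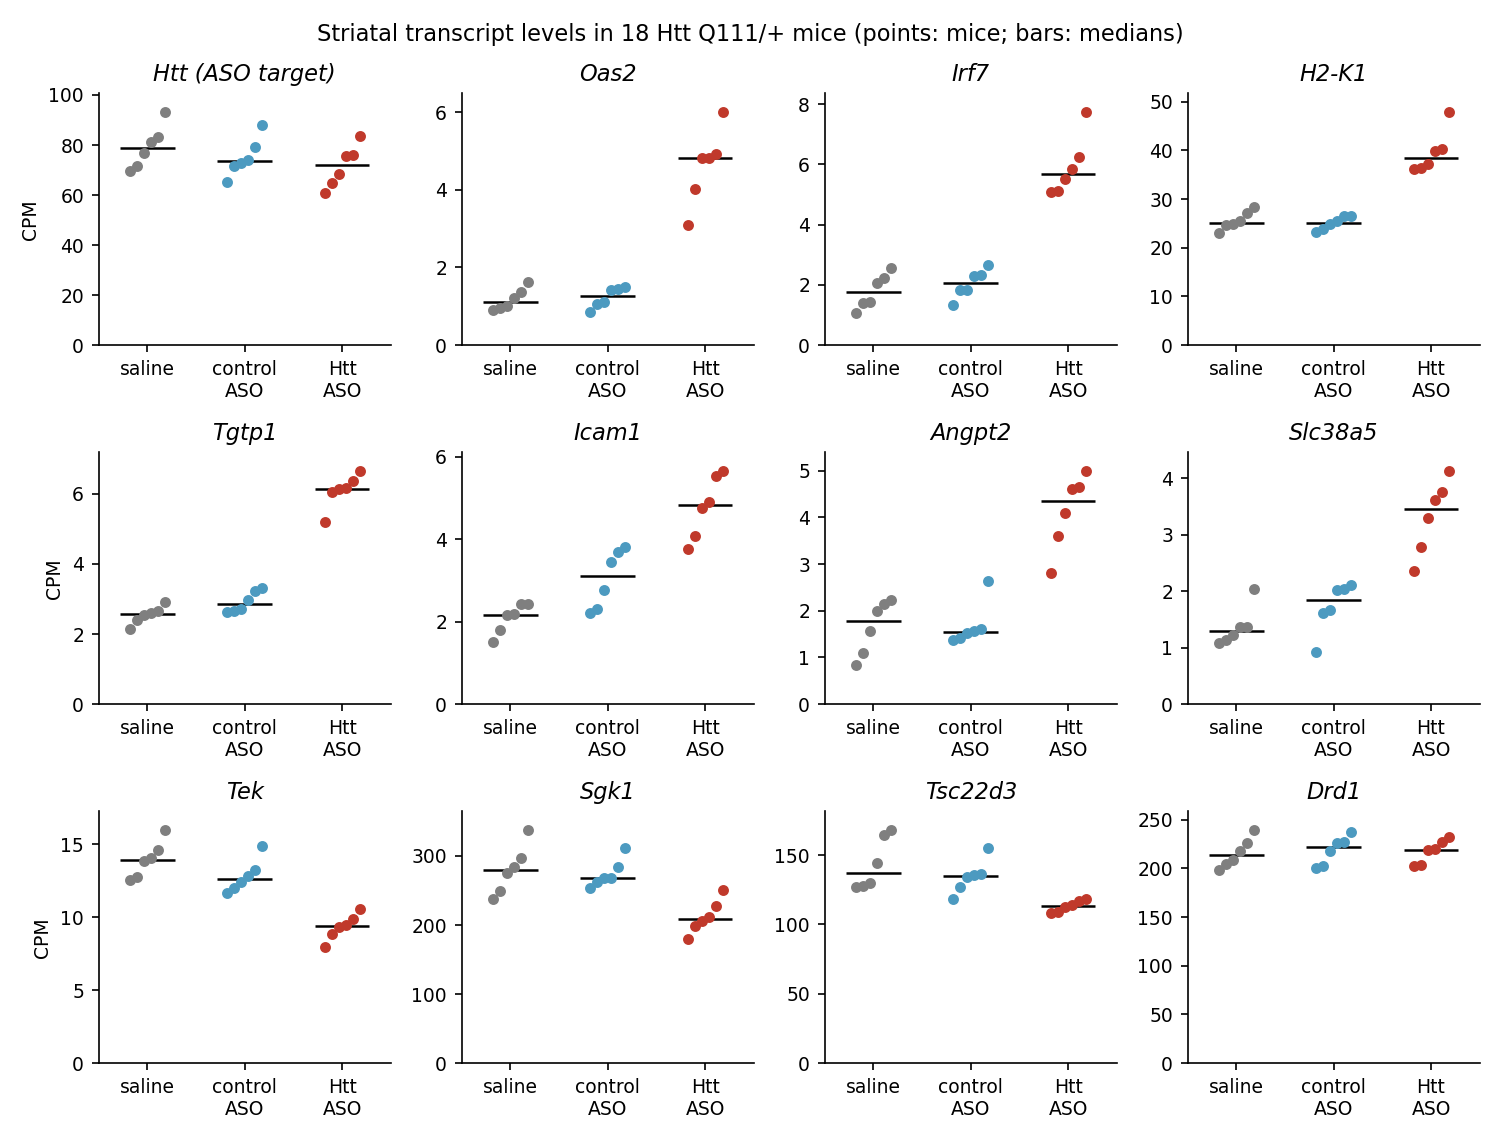
Level in CPM (vertical axes, from 0) of 12 transcripts in each of the 18 Htt Q111/+ mice by treatment, where points are mice and bars medians. The Htt and Drd1 panels overlap between all groups, whereas for Oas2, Irf7, H2-K1, Tgtp1, Icam1, Angpt2 and Slc38a5 the 6 Htt ASO mice sit above the 6 saline mice and for Tek and Tsc22d3 below them.

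Promoter windows are shown for genes on which the results turn: Ifit1, Tgtp1 and B2m for the ISRE, Icam1 for the gamma-activated site (GAS) that STAT dimers bind, and Sgk1 for the GRE. Each runs 5′ to 3′ along the gene's strand, from 250 bases before to 50 bases after an annotated start, in RefSeq on GRCm38.p6, and capitals mark a match to the motif on either strand.
Ifit1, chr19:34640639-34640938 (plus strand): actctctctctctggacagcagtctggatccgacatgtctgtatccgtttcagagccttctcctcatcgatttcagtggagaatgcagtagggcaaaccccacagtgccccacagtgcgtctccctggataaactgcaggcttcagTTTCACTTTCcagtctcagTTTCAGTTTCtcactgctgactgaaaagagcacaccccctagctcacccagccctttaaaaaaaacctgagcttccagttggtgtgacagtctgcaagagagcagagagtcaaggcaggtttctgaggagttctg
Tgtp1, chr11:48992197-48992496 (minus strand): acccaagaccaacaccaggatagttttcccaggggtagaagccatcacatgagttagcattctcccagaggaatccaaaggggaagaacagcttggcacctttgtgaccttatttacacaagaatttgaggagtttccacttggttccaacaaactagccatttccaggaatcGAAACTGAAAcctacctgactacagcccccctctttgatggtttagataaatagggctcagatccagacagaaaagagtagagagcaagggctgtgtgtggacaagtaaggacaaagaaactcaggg
B2m, chr2:122147437-122147736 (plus strand): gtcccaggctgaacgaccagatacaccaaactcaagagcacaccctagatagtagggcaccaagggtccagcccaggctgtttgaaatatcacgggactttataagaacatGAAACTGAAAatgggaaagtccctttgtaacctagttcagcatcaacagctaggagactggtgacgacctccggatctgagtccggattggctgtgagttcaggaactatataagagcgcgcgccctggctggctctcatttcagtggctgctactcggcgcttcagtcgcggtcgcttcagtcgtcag
Icam1, chr9:21015690-21015989 (plus strand): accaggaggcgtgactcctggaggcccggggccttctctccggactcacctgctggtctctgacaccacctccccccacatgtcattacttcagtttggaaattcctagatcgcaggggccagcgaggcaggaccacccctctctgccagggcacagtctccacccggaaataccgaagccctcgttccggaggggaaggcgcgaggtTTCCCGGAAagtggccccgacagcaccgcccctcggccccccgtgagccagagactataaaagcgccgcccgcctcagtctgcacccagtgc
Sgk1, chr10:21993640-21993939 (plus strand): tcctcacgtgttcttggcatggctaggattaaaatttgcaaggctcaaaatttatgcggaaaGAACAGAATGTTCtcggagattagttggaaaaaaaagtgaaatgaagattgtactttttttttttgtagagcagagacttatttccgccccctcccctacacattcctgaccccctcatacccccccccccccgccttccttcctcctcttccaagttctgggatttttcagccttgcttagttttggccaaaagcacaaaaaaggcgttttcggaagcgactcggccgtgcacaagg
The ISRE was searched as a pair of GAAA with 2 bases of any kind between them, the GAS as TTCNNNGAA, and the GRE as GNACA and TGTNC with 3 bases of any kind between them, on both strands. A match of 1 kind may overlap a match of another. A window was found for 11753 of the tested genes, 60 of those called higher and 11 of those called lower, and a gene with several starts counted once if any window matched. The ISRE letters were in 15 of the 60 genes called higher (25%) against 3.6% of all. Among those 15 were Oas1a, Ifit1, Rsad2, Ifitm3, Slfn5, Lgals9, Ifi203, B2m and the GTPase genes Tgtp1, Irgm (so listed), Irgm2, Igtp and Gbp3. GAS letters were in 10 (16.7%) against 8.16% of all, Icam1 among them, and in 3 of the 11 genes called lower (27.3%). GRE letters were in 1 of the 11 genes called lower, Sgk1, against 0.4% of all. The ISRE letters were also in 1 of those 11 (9.09%), again Sgk1, but at another annotated start than the one shown. A match describes the letters of these windows and shows no binding.

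Oligoadenylate synthetases make a short nucleotide chain on double-stranded RNA that activates the nuclease RNase L. Oas2 had the smallest adjusted p of the comparison. Its level ran from 3.09 to 6.00 CPM (median 4.82) on Htt ASO and 0.905 to 1.63 CPM (median 1.11) on saline. The groups did not overlap, and every Htt ASO mouse lay well above the highest saline mouse (log2 fold change 1.96, standard error 0.200, adjusted p = 4.18e-07). Oas1a, from the same family, ran from 1.47 to 2.754 CPM (median 1.753) against 0.545 to 0.925 CPM (median 0.768), again without overlap (1.34, adjusted p = 0.000141). Oasl2 was not called, with a difference of 0.91 (adjusted p = 0.134), nor was Oas1g at 1.98 (adjusted p = 0.0848), whose 12 libraries all held under 1 CPM. Of 9 tested genes in this list, 2 were called higher and 0 lower, and 7 had a log2 fold change above 0, with a median of 0.91. Against control ASO the list median was 0.37. The Oas1 genes lie in a cluster of close copies, so the division of reads among them by the authors' counting is uncertain.

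Interferon-inducible GTPases, which act on vacuoles of intracellular pathogens, gave 7 calls among 12 tested, and the other 5 also had a log2 fold change above 0. The list median was 0.65. Tgtp1 (listed as Tgtp) ran from 5.20 to 6.65 CPM (median 6.14) on Htt ASO and 2.16 to 2.92 CPM (median 2.57) on saline, without overlap (1.26, standard error 0.133, adjusted p = 5.38e-07). Gvin1, a very large GTPase, ran from 23.5 to 33.2 CPM (median 28.3) against 12.2 to 17.2 CPM (median 15.1) (0.93, adjusted p = 2.72e-06). Irgm2 (listed as Iigp2) ran from 7.76 to 9.97 CPM (median 8.93) against 4.44 to 6.07 CPM (median 4.93) (0.80, adjusted p = 2.16e-06). For neither did the groups overlap. Gbp3 was higher by 0.68 (adjusted p = 0.00566), while Gbp2, at 0.53, was not called (adjusted p = 0.129). Summed over the list, the level was 84.0 to 110.7 CPM in the Htt ASO mice and 51.2 to 67.6 in the saline mice. With sequencing lane as a covariate, 3 of the 12 were called, and the 7 kept their direction. Several of these genes have near-identical neighbours, Tgtp1 and Gvin1 among them, and their separate values share that uncertainty.

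Antiviral effectors formed the longest list of this kind, with 45 genes tested. Called higher were 14, called lower 0, and 44 had a log2 fold change above 0, with a median of 0.40. Ifi44 ran from 1.14 to 2.45 CPM (median 1.746) on Htt ASO and 0.319 to 0.661 CPM (median 0.498) on saline (1.754, standard error 0.288, adjusted p = 0.00056). Ifit1, whose protein holds back translation of viral RNA, ran from 4.34 to 8.82 CPM (median 5.42) against 2.31 to 3.08 CPM (median 2.73) (1.098, standard error 0.227, adjusted p = 0.0103). Neither gene overlapped between groups. With sequencing lane as a covariate Ifit1 kept a difference of 0.95 but was no longer called. Slfn5 ran from 10.8 to 16.2 CPM (median 14.5) against 6.75 to 8.75 CPM (median 7.85) (0.83, adjusted p = 2.72e-06). Ifitm3, a membrane protein that blocks entry of viruses, ran from 10.0 to 14.6 CPM (median 11.4) against 5.72 to 7.52 CPM (median 6.61) (0.81, adjusted p = 0.000135). Lgals9, a galectin, was higher by 0.60 (adjusted p = 0.000232). In these 3 genes too, the lowest Htt ASO mouse was above the highest saline mouse. Rsad2, which encodes viperin, was also among the genes called (0.69, adjusted p = 0.0233). Fitted with lane as a covariate, the list held 8 calls.

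MHC class I molecules carry peptides to the cell surface, paired with B2m, and interferons raise their transcription. H2-K1, a classical class I heavy chain, ran from 36.2 to 47.9 CPM (median 38.5) on Htt ASO and 22.97 to 28.5 CPM (median 25.2) on saline, without overlap (0.63, standard error 0.0710, adjusted p = 1.78e-06). H2-D1, the other classical chain of this strain, was higher by 0.47 (adjusted p = 0.00181) and B2m by 0.44 (adjusted p = 0.000604). The 3 largest differences were in genes of the nonclassical Q region. H2-Q6 ran from 1.93 to 5.27 CPM (median 3.60) against 0.272 to 1.54 CPM (median 0.530) (2.501, standard error 0.354, adjusted p = 4.96e-05). H2-Q7 ran from 2.25 to 2.94 CPM (median 2.52) against 0.414 to 1.13 CPM (median 0.606) (1.90, adjusted p = 9.42e-06). H2-Q8 ran from 1.79 to 2.44 CPM (median 2.15) against 0.543 to 1.22 CPM (median 0.761) (1.48, adjusted p = 2.72e-06). No Q gene overlapped between the groups, but the class I heavy chains, and the Q genes above all, are close in sequence, so how the difference divides among them is uncertain. Of 27 tested genes of class I presentation, 7 were called higher, with a list median of 0.17. These were 6 heavy chain genes and B2m, and no chaperone or peptide-loading gene of the list was called. MHC class II, the set displayed by professional antigen-presenting cells, gave 0 calls in 6 genes with limma, edgeR and DESeq2 (1 at an unadjusted p under 0.05). All 6 had a log2 fold change above 0, and their median of 0.34 was larger than that of class I. H2-Ab1, under 1 CPM in every mouse of both groups, differed by 0.60 (adjusted p = 0.689).

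Among regulators and sensors, few genes were called, 3.57% of the STAT, IRF and receptor list and 9.09% of the sensors. Both shares were above the 0.556% of all tested genes. Irf7, the transcription factor that amplifies type I interferon production, ran from 5.07 to 7.73 CPM (median 5.68) on Htt ASO and 1.077 to 2.56 CPM (median 1.752) on saline, without overlap (1.76, standard error 0.216, adjusted p = 4.06e-06). It was the only call among 28 STAT, IRF and interferon receptor genes, whose median was 0.038. Irf9 (listed as Isgf3g) and Stat2, which act in interferon signalling, differed by 0.32 and 0.13 (adjusted p = 0.2 and 0.511). Zbp1, a sensor of left-handed double-stranded nucleic acid, ran from 0.367 to 1.04 CPM (median 0.492) against 0.0557 to 0.188 CPM (median 0.110) (2.13, adjusted p = 0.00191). Ifi203 ran from 3.57 to 4.72 CPM (median 4.17) against 1.86 to 2.61 CPM (median 2.23) (0.91, adjusted p = 1.23e-05). Both lay apart between the groups, and they were the calls among 22 nucleic acid sensors, whose median was 0.029. The mean log2 deviation from the saline mean over the sensors, calls included, did not overlap. It ran from 0.17 to 0.36 in the Htt ASO mice and from −0.084 to 0.10 in the saline mice. Over the STAT, IRF and receptor list it overlapped, at 0.010 to 0.14 against −0.048 to 0.049. The cytosolic RNA sensors Rigi (listed as Ddx58) and Ifih1 were at 0.40 and 0.39 (adjusted p = 0.0566 and 0.0855). No interferon gene could be tested, since neither of the 2 found in the table passed the filter on low counts. Chemokines and cytokines (18 tested) and complement (20 tested) gave 0 calls each with limma, edgeR and DESeq2, and 0 and 3 of them had an unadjusted p under 0.05 with limma.

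**Figure D2:**
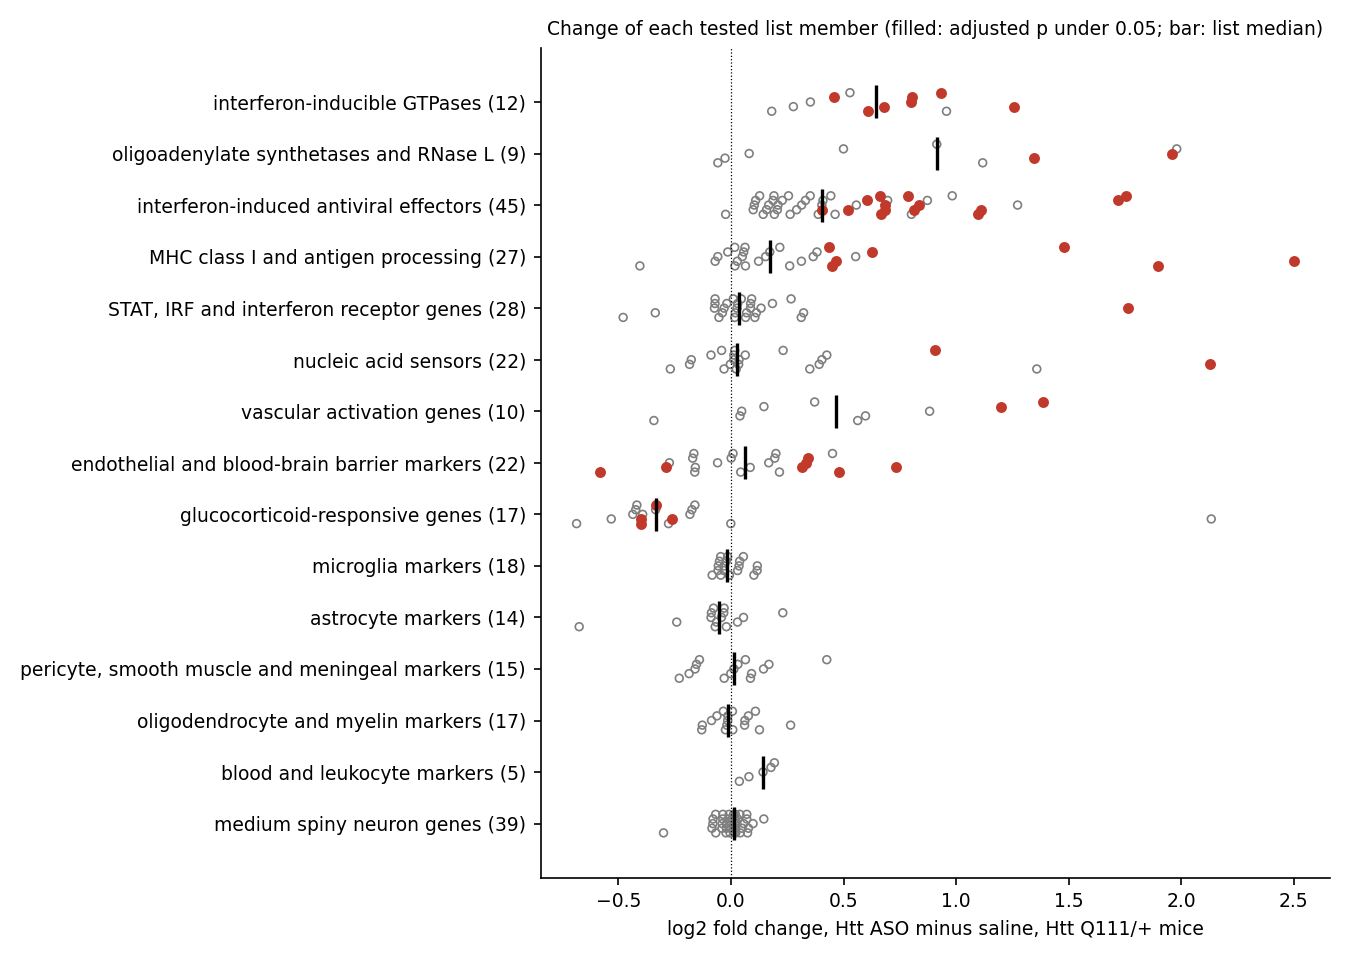
Log2 fold change of Htt ASO minus saline in Htt Q111/+ mice (horizontal axis) for each tested member of 15 gene lists (number tested in brackets); filled points were called, open points were not, and bars mark list medians. The antiviral, GTPase, OAS and MHC class I lists lie mostly to the right of 0, the glucocorticoid-responsive list to the left apart from Lcn2, and the microglial, oligodendrocyte and medium spiny neuron lists close around 0.

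Markers of brain vessels moved in both directions. Ly6a, a surface protein abundant on mouse brain endothelium and inducible by interferon, ran from 38.9 to 46.4 CPM (median 40.9) on Htt ASO and 21.3 to 29.5 CPM (median 24.2) on saline (0.73, standard error 0.106, adjusted p = 7.04e-05). Tie1, a receptor kinase of endothelial cells, ran from 14.5 to 18.3 CPM (median 16.1) against 10.5 to 12.9 CPM (median 11.6) (0.48, standard error 0.0803, adjusted p = 0.000743). Its partner Tek, the receptor of angiopoietins, was lower, at 7.996 to 10.6 CPM (median 9.38) against 12.5 to 16.0 CPM (median 13.9) (−0.58, standard error 0.111, adjusted p = 0.00456). None of these 3 overlapped between groups. Tek was not called when only the mice of shared lanes were fitted, with lane as a covariate (−0.52). Itm2a was higher (0.33, adjusted p = 0.0102), as were the junction gene Cdh5 (0.34, adjusted p = 0.0242) and Ly6c1 (0.32, adjusted p = 0.0485). When 1 of the 12 mice was left out in turn, Cdh5 was called in 6 of 12 fits and Ly6c1 in 2. Slc7a5, which carries large neutral amino acids across the barrier, was lower (−0.29, adjusted p = 0.0391). In all, 5 of 22 endothelial markers were called higher and 2 lower, with a median of 0.064. With lane as a covariate these counts were 2 and 1. Their summed level, 1204 to 1302 CPM on Htt ASO and 1165 to 1271 on saline, overlapped. In bulk tissue, more cells of a type and more RNA per cell cannot be told apart.

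Of 10 tested genes of activated endothelium, Icam1 and Angpt2 were called higher. Icam1, the adhesion molecule that leukocytes bind, ran from 3.78 to 5.66 CPM (median 4.84) on Htt ASO and 1.52 to 2.43 CPM (median 2.17) on saline (1.199, standard error 0.161, adjusted p = 1.75e-05). Angpt2, an angiopoietin that can antagonize signalling through Tek, ran from 2.81 to 4.99 CPM (median 4.35) against 0.835 to 2.24 CPM (median 1.78) (1.39, standard error 0.240, adjusted p = 0.00129). Both genes separated the groups completely. Icam2 and Vcam1 were not called (0.60 and 0.15, adjusted p = 0.055 and 0.744), and the list had a median of 0.47. That median was 0.25 with DESeq2. Summed over the list, the level ran from 134 to 149.98 CPM on Htt ASO and 117 to 134 on saline, and overlapped.

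Transporters were among the called genes outside any list. Slc38a5, a glutamine transporter, ran from 2.35 to 4.12 CPM (median 3.46) on Htt ASO and 1.09 to 2.04 CPM (median 1.29) on saline (1.29, adjusted p = 0.00191). Slc40a1, which encodes the iron exporter ferroportin, ran from 13.4 to 16.3 CPM (median 14.5) against 9.26 to 10.99 CPM (median 9.62) (0.56, adjusted p = 9.42e-06). Abcc4, an efflux pump, was lower, at 16.8 to 20.04 CPM (median 17.6) against 19.1 to 24.7 CPM (median 22.01) (−0.29, adjusted p = 0.0138), and its groups overlapped. Some called genes outside the lists are also known from endothelial cells. They were picked after their values were seen, and how many such genes were tested was not counted. Cd93, an endothelial surface lectin, ran from 15.5 to 22.5 CPM (median 19.98) against 8.16 to 10.3 CPM (median 8.67) (1.09, adjusted p = 1.13e-05). Thbd, the anticoagulant receptor thrombomodulin, ran from 11.9 to 14.8 CPM (median 13.6) against 8.40 to 10.2 CPM (median 9.51) (0.53, adjusted p = 0.00566). Neither overlapped. Further calls were Mmrn2 (0.58), Clec14a (0.72), Sox7 (0.55), Emcn (0.39), Cd34 (0.34) and Robo4 (0.27). Leaving out 1 of the 12 mice in turn kept Cd93, Thbd and Mmrn2 in all 12 fits, Sox7 in 7, Cd34 in 5, Robo4 in 4, Emcn in 3 and Clec14a in 2.

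**Figure D3:**
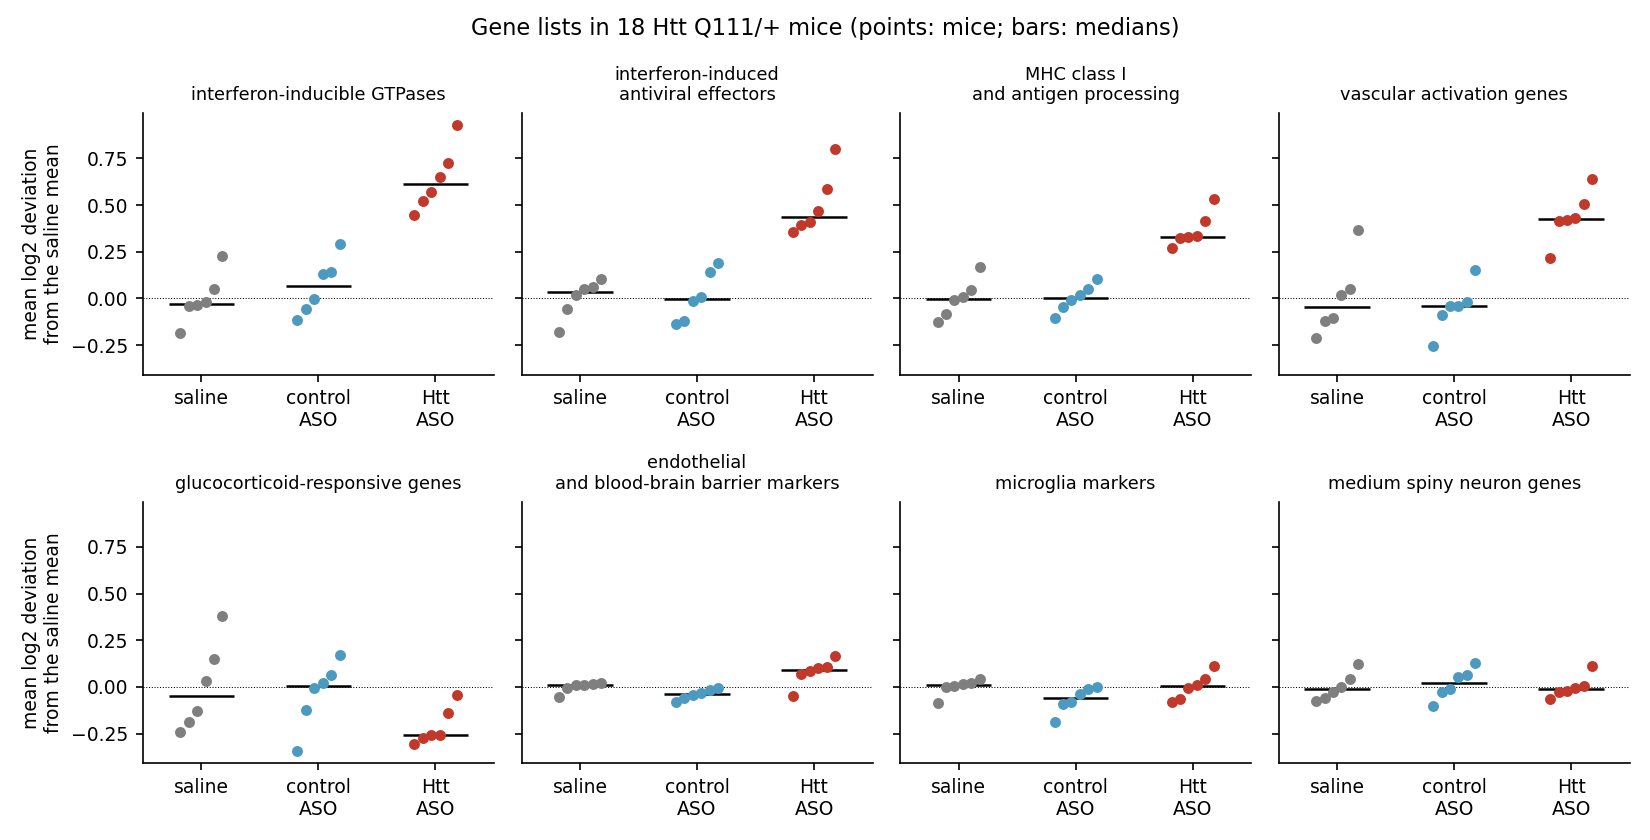
Mean log2 deviation from the saline mean over the tested members of 8 gene lists (vertical axis) in each of the 18 Htt Q111/+ mice by treatment, where points are mice and bars medians. The 6 Htt ASO mice lie above all saline and control ASO mice in the GTPase, antiviral and MHC class I panels, while the microglia and medium spiny neuron panels overlap.

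Cell type markers other than the endothelial ones gave 0 calls with limma, edgeR and DESeq2. The microglial list (18 tested) had a median log2 fold change of −0.018 and a summed level of 677 to 764 CPM on Htt ASO and 700.3 to 749.5 on saline, and 1 marker had an unadjusted p under 0.05. Astrocyte (14), oligodendrocyte (17), pericyte and meningeal (15), choroid plexus (10), cortical neuron (11) and interneuron (15) markers had medians between −0.057 and 0.013, with 3, 4, 3, 0, 0 and 0 members at an unadjusted p under 0.05. A log2 fold change above 0 was found in 3 astrocyte and 3 interneuron markers, against 47.0% of all tested genes. Blood and leukocyte markers passed the filter in 5 of 20 entries. The T cell genes Cd3e, Cd3g and Cd8a and the B cell gene Cd79a did not pass it. Hbb-b1, a hemoglobin chain that marks red cells left in the vessels, ran from 44.0 to 87.2 CPM (median 61.4) on Htt ASO and 28.8 to 92.2 CPM (median 63.1) on saline, and with it as a covariate 97 genes were called. Ttr, the leading choroid plexus transcript, ran from 15.9 to 110.9 CPM (median 37.5) against 20.6 to 66.5 CPM (median 26.6). Of all 17639 tested genes, 1089 had an unadjusted p under 0.05, a smaller share than among astrocyte, oligodendrocyte or pericyte and meningeal markers. Reactive glia genes (15 tested, median 0.17) held 0 calls with any of the 3 tools and 6 members at an unadjusted p under 0.05. That share was also larger than among all tested genes, and in Htt +/+ mice 2 members were called higher. Within this list Vim was at 0.28 (adjusted p = 0.228) and Lcn2 at 2.13 (adjusted p = 0.167). Lcn2 was at about 1 CPM or less in all 12 mice except GS1, which had 1.37 CPM.

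Of the 6 genes called lower that were in a list, 4 were glucocorticoid-responsive genes. Of 17 tested, 4 were called lower, 0 higher, and 1 (Lcn2) had a value above 0, with a median of −0.33. Sgk1 (listed as Sgk), a kinase that regulates ion channels and transporters, ran from 179.9 to 250.2 CPM (median 209) on Htt ASO and 238 to 337 CPM (median 279) on saline (−0.40, standard error 0.0795, adjusted p = 0.00717). Tsc22d3, which encodes the anti-inflammatory protein GILZ, ran from 108 to 118 CPM (median 113) against 127 to 168 CPM (median 137) (−0.33, standard error 0.0692, adjusted p = 0.0109). Tsc22d3 separated the groups and Sgk1 did not, since the highest Htt ASO mouse for Sgk1 was above the lowest saline mouse. Sgk1 was not called in a fit of the 12 mice alone (−0.40), nor Tsc22d3 with age in days as a covariate (−0.29). Nfkbia, the inhibitor of NF-kB and itself an NF-kB target, was lower (−0.40, adjusted p = 0.025), and so was the metallothionein Mt2 (−0.26, adjusted p = 0.0233). Both of these calls were lost when single mice were left out, with Nfkbia called in 7 of 12 such fits and Mt2 in 6. Of further genes of the list, Per1 and Fkbp5 were at −0.00075 and −0.17 and were not called. Pdk4, a kinase that turns fuel use away from glucose, was at the threshold (−0.39, adjusted p = 0.0501). In lane 7, which held 1 Htt ASO and 3 saline mice, the differences were −0.17 for Sgk1 and −0.24 for Tsc22d3, against −0.61 and −0.31 in lane 3 and −0.42 and −0.55 in lane 4. The mean log2 deviation from the saline mean over the list ran from −0.31 to −0.042 in the Htt ASO mice and from −0.24 to 0.38 in the saline mice, and overlapped. Saline mouse IE2, the oldest of the 12 and the only one in lane 6, was the highest. Without it 2 members were called lower, as also without Htt ASO replicates 2 or 4 or saline replicate 5. The count was 1 with age in days as a covariate and 8 without the mice of lane 7, a setting chosen after seeing the data.

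Other genes called lower had varied functions. Arrdc2, an arrestin-domain protein, ran from 19.2 to 28.9 CPM (median 23.1) on Htt ASO and 27.8 to 42.5 CPM (median 34.1) on saline (−0.53, adjusted p = 0.0361). Acacb, which makes the malonyl-CoA that restrains fatty acid oxidation, ran from 6.04 to 7.84 CPM (median 7.05) against 8.17 to 10.4 CPM (median 8.96) (−0.39, adjusted p = 0.0265). Rhou, a small GTPase, ran from 43.5 to 50.5 CPM (median 46.3) against 51.3 to 60.3 CPM (median 53.5) (−0.22, adjusted p = 0.0256). Acacb and Rhou did not overlap between groups, Arrdc2 did. With 1 mouse left out in turn, Arrdc2 was called in 5 of 12 fits, Acacb in 6, Rhou in 7, Slc7a5 in 6 and Abcc4 in 9. Scube2 (−0.64, adjusted p = 0.0403) and Igf1r (−0.21, adjusted p = 0.0351) completed the 12, called in 4 and 5 of those 12 fits. Like Rsad2, H2-D1, B2m, Cdh5, Ly6c1, Per1 and Fkbp5, both are named outside the rule for named genes, after their values were seen. With age in days as a covariate, only 2 genes were called lower, and 55 higher.

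Striatal neuron genes held no call. None of 39 tested genes of medium spiny neurons was called by limma, edgeR or DESeq2 (2 at an unadjusted p under 0.05), and their median was 0.012. Drd1 (listed as Drd1a), the dopamine receptor of the direct pathway, ran from 203 to 233 CPM (median 219.5) on Htt ASO and 198 to 239 CPM (median 213) on saline (0.012, 95% confidence interval −0.085 to 0.11). Pde10a, the striatal phosphodiesterase, ran from 1233 to 1513 CPM (median 1260.4) against 1171 to 1467 CPM (median 1318) (−0.0084, 95% confidence interval −0.14 to 0.12). Islr2 and N4bp2 (listed as B3bp) were at 0.18 and −0.074 (adjusted p = 0.878 and 0.984). Immediate early genes (21 tested), clock genes (19), heat shock genes (19), cholesterol synthesis genes (22), fuel genes (23), huntingtin partners (17), mismatch repair genes (13) and autophagy genes (21) gave 0 calls with limma, with 0, 1, 0, 2, 4, 1, 0 and 0 members at an unadjusted p under 0.05 and medians between −0.019 and 0.038. Ribosomal protein (75) and oxidative phosphorylation genes (70) also had 0 calls, with 0 and 1 at an unadjusted p under 0.05 and medians of −0.033 and −0.023. Only 2 of the 75 and 12 of the 70 had a log2 fold change above 0, against 47.0% of all tested genes. EdgeR and DESeq2 called 0 in all these lists except Pdk4, a fuel gene that is also in the glucocorticoid-responsive list, which both called lower.

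Whether treatment moved the genes that differ by genotype was examined with calls from mice outside the comparison. On control ASO, 3266 genes (18.5%) differed between Htt Q111/+ and Htt +/+ mice. Those higher in Htt Q111/+ mice (1773) had a median change of 0.0019 on Htt ASO, and those lower (1493) one of −0.0036, against −0.0047 for all tested genes. Treatment calls were found in 7 of them (0.214%), below the 0.556% of all tested genes. Named as the members of this count after their values were seen, the 7 were Ly6c1, Dpp4, Rtp3, Tie1 and Uaca, lower in Htt Q111/+ mice and higher on Htt ASO, and Tek and Sgk1, lower in both.

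**Figure D4:**
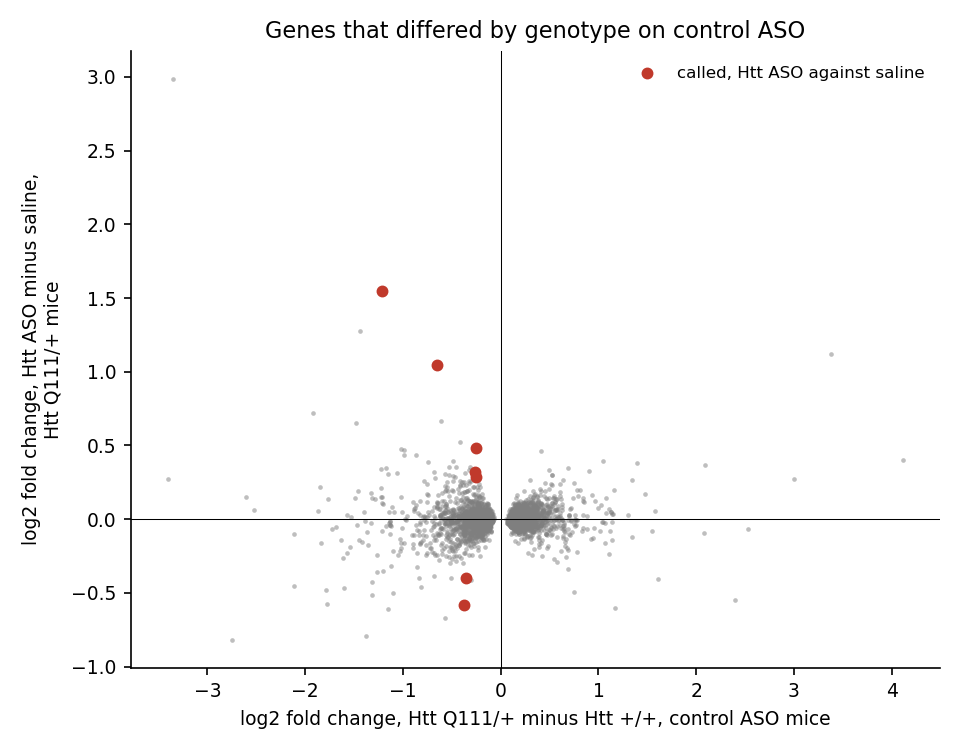
Log2 fold change of Htt Q111/+ minus Htt +/+ mice on control ASO (horizontal axis) against that of Htt ASO minus saline in Htt Q111/+ mice (vertical axis) for the 3266 genes that differed by genotype; filled points are the 7 genes also called for treatment. Most points lie close to 0 on the vertical axis on both sides.

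The same comparison in Htt +/+ mice, which shares no mouse with this one, gave 128 calls (0.726%). Both genotypes called 66 genes, all in the same direction, which is 67.3% of the Htt Q111/+ calls and 51.6% of the Htt +/+ calls. Without the left hemistriatum library, a setting chosen after seeing the data, 117 genes were called in Htt +/+ mice, 60 of them among the 98. The 86 genes called higher had a median of 0.68 in Htt Q111/+ and 0.64 in Htt +/+ mice. Those called lower had −0.36 and −0.16. All 98 kept their direction in Htt +/+ mice, where 52.2% of all tested genes did. Oas2 differed by 2.01 (adjusted p = 2.55e-08), Icam1 by 1.23 (adjusted p = 4.21e-06), Angpt2 by 1.41 (adjusted p = 0.000439) and Tek by −0.58 (adjusted p = 0.00164) in Htt +/+ mice. Sgk1 and Tsc22d3 were at −0.15 and −0.036 there and were not called (adjusted p = 0.509 and 0.89). A test of the difference between genotypes called 0 genes with limma (0.0%), and 973 had an unadjusted p under 0.05. EdgeR and DESeq2 also called 0. For Sgk1 and Tsc22d3 the unadjusted p of that difference was 0.0323 and 0.00462, and the smallest adjusted p among the 98 genes was 0.850. The glucocorticoid-responsive list had a median of −0.14 in Htt +/+ mice, with 1 call higher and 0 lower.

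**Figure D5:**
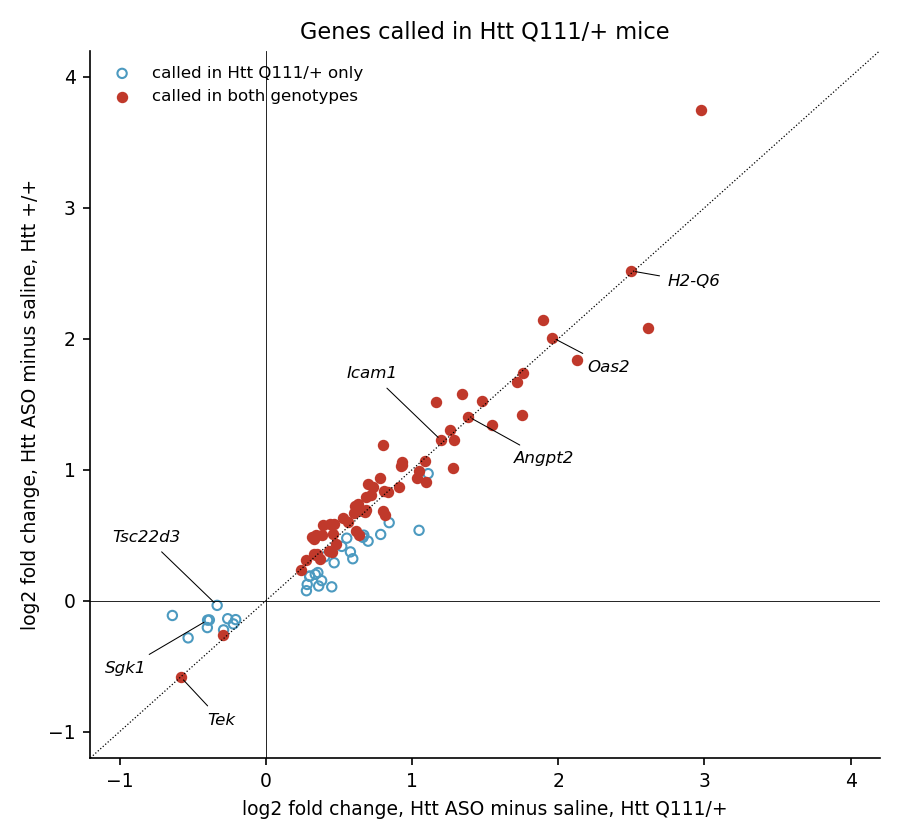
Log2 fold change of Htt ASO minus saline in Htt Q111/+ mice (horizontal axis) and Htt +/+ mice (vertical axis) for the 98 genes called in Htt Q111/+ mice, which are therefore the ones chosen on the horizontal axis; the dotted line marks equal change. Filled points, the 66 called in both genotypes, lie near the line, and most genes called lower sit closer to 0 in Htt +/+ mice.

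The control ASO mice show the levels under an oligonucleotide not directed at Htt. Htt ASO against control ASO in Htt Q111/+ mice gave 63 calls (0.357%), 58 higher and 5 lower. Control ASO against saline gave 0 calls with limma (0.0%), with 512 genes at an unadjusted p under 0.05. Each shares 1 of its groups with the main comparison, so the values are set side by side only. Over the genes called higher, the median was 0.56 against control ASO and 0.094 for control ASO minus saline. Over those called lower the medians were −0.23 and −0.091. Oas2 ran from 0.864 to 1.504 CPM (median 1.26) on control ASO, overlapping saline and below every Htt ASO mouse. Icam1 ran from 2.22 to 3.81 CPM (median 3.11) there, overlapping both other groups, and its differences were 0.67 for Htt ASO minus control ASO (adjusted p = 0.0216) and 0.53 for control ASO minus saline (adjusted p = 1). Tek ran from 11.7 to 14.9 CPM (median 12.6) and differed by −0.46 from control ASO (adjusted p = 0.0614). Sgk1 ran from 253 to 312 CPM (median 268) and differed by −0.38 (adjusted p = 0.0156).

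Htt ASO mouse GV1, the third replicate and the only one of the 12 in lane 8, had the highest mean deviation of the 6 for the GTPase, antiviral and MHC class I lists (0.93, 0.80 and 0.53). The other 5 ranged from 0.45 to 0.73, 0.35 to 0.58 and 0.27 to 0.42, all above the highest saline mouse. Without GV1, 68 genes were called, 67 of them among the 98. Leaving out each of the 12 mice in turn kept 52 of the 98 calls throughout. Without saline mouse HO1, the third saline replicate, 63 were called. Fitting the mice of the shared lanes alone, with 4 Htt ASO and 5 saline mice and lane as a covariate, left 27 calls, all but 6 of them among the 98.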

How the data were processed

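Total RNA of the right hemistriatum (the left in 1 Htt +/+ mouse on Htt ASO) was sequenced as stranded, poly(A)-selected paired-end libraries. The authors used Bowtie 0.12.9 for alignment to mouse transcripts (MGSCv37) and estimated expected counts per gene with RSEM 1.1.18, per the labels and the study's methods, and deposited them unscaled as one table of 35 mice. Reads shared by near-identical genes are thus divided by a model. Of 22099 genes listed, 17639 passed filterByExpr (edgeR 4.0.16, minimum count 10, minimum total 15). The counts were scaled by TMM and fitted unrounded with voom and limma 3.58.1 in R 4.3.3, with a mean for each of the 6 groups of genotype and treatment over all 35 mice (29 residual degrees of freedom). P-values were adjusted by Benjamini-Hochberg over all genes tested, with 0.05 as threshold. Htt was also tested by exact permutation of 6 against 6 mice. EdgeR and DESeq2 1.42.0 on rounded counts, other scalings, filters, weights and samples, and age or lane as a covariate were alternatives. Each mouse was a separate animal with 1 library, and its counts differed from those of the other mice of its group beyond sampling noise. No pairing of mice between groups is given in the labels.

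Named genes were Htt and 4 transcripts the study names, called genes of at least 1 CPM among the 12 largest log2 fold changes upward, the 10 largest downward and the 10 smallest adjusted p, the 4 smallest p of each list, and the 3 smallest of the genotype difference. The members and lists were chosen with earlier results of these data known. Rows whose names a spreadsheet had turned into dates (25) entered the fit unnamed. The number after L in the titles was taken for the lane of the sequencer. Promoter windows came from RefSeq on GRCm38.p6, another build than the one the authors used, matched by symbol. Some genes are not reported here.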

Additional observations from a re-analysis of the deposited data

Results flagged for a closer look

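Of 286 groups of 6 mice (143 named genes, Htt ASO and saline), 16 had 1 mouse whose gap to the nearest other exceeded Dixon's 95% limit of 0.625 of the range. Chance flags about 1 in 20 groups. Htt ASO mouse GV1 was the highest in 6 of them: H2-K1 at 47.9 CPM with the nearest at 40.3, Gbp3 at 10.1 (8.28), Zbp1 at 1.04 (0.583), Gbp2 at 8.92 (6.01), Srgn at 8.06 (6.53) and Ly6a at 46.4 (41.7). All 6 are interferon-inducible or vascular or leukocyte genes, kinds that the rule for named genes favoured. Their share among the 143 was not counted. The levels of the other 5 mice for H2-K1, Gbp3, Zbp1 and Ly6a were still above every saline mouse, while those for Gbp2 and Srgn overlapped the saline mice.

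Saline mouse IE2 stood apart in 4 genes, high in Slc38a5 (2.04 CPM, nearest 1.37), Oas1g (0.215, nearest 0.0711) and the red cell gene Alas2 (2.70, nearest 1.36) and low in Sall1 (26.2, nearest 31.5). Saline mouse HI2 was the lowest for C5ar1 (0.931 CPM, nearest 1.06), and GT2 the highest for C1r (0.947, nearest 0.567).

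Htt ASO mouse GS1 had 110.9 CPM of the choroid plexus transcript Ttr, with the nearest at 50.2, and the lowest level of the leukocyte gene Ptprc, 5.51 CPM, with the nearest at 6.17. Htt ASO mouse GZ1 was the highest for Pde10a (1513 CPM, nearest 1313) and for Fezf2, a cortical neuron gene (2.72, nearest 2.17).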

How the results depend on the processing

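All 98 called genes kept their direction under the 27 alternatives, and 13 were called under every one of them. Of 3841 single-gene values, 3726 stayed on their side of the threshold, 90 lost and 25 gained a call, and 0 reversed. DESeq2 called 152 genes, 33 of them lower, and edgeR called 22 lower. With age as a covariate 57 were called (55 higher, 2 lower), and with lane as a covariate 77, with 19 lower. Shared lanes alone, with lane as a covariate, gave 27 (22 higher, 5 lower), and the 12 mice alone 7 lower. Leaving out lane 7, a setting chosen after seeing the data, gave 34 higher and 36 lower. Leaving out 1 mouse at a time gave 63 to 106 calls, 58 to 88 higher and 5 to 21 lower. The lowest total came without saline replicate 3, and 5 lower calls came without Htt ASO replicate 2 or saline replicate 3 or 6. The cause of these differences was not tested. The genotype difference called 0 genes in each fit that could give it. It could not be computed from the 12 mice, the Htt Q111/+ mice or the shared lanes alone. No paired analysis was possible because the labels give no replicate numbers shared between groups. Genes under about 1 CPM rested on few reads. Age, lane and the first letter of the mouse names were spread unevenly over the groups.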
